A study of Mus musculus with 6 samples.

Results

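The genes described here carry prostaglandin synthesis and its nearest steps in EMT6 cells, together with Akr1c18, an aldo-keto reductase of steroid and prostaglandin metabolism. They are 9 named genes (Ptgs1, Ptgs2, Ptges, Ptges3, Akr1c18, Akr1b3, Hpgd, Pla2g4a and Ptger4), found by symbol among the 53465 genes of the table. All 9 were present once. The set was selected on the measured difference between the groups, its names having been chosen with the fold changes of the same comparison known, so the values of these genes between the groups are given as a description and carry no test.

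EMT6 is a mouse mammary carcinoma line that grows in BALB/c hosts. Cells were held in culture for more than 4 weeks with 0.5 μg/ml of an isotype control antibody (Parental, PVITRO, 3 libraries) or with the same concentration of an anti-PD-L1 antibody (anti-PD-L1 Resistant, PTRVITRO, 3 libraries), and both groups come from the same line with no other allele or agent named in the labels. No immune cells were added, so the comparison concerns tumor cells alone. The groups were held in separate cultures, so an effect of the antibody and drift between the cultures cannot be told apart. Nothing in the labels says that the 3 libraries of a group came from separate cultures, and the study calls its replicates technical where it does not say otherwise, so every SD, SE and p below measures the spread between libraries, which may be technical.

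Prostaglandins are short-lived lipid signals made from arachidonic acid. A phospholipase frees arachidonic acid from membranes, a cyclooxygenase turns it into the common precursor prostaglandin H2, and terminal synthases convert that precursor into prostaglandin E2, D2, F2α, I2 or thromboxane. Prostaglandin E2 leaves the cell, acts on G protein-coupled receptors that mostly signal through cyclic AMP, and is taken up and oxidised to inactive products. In many carcinomas it is made by cyclooxygenase-2 and dampens T cells and myeloid cells.

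Depth ran from 17757341 to 32426739 estimated counts per library, and 14217 genes passed the filter on low counts. In edgeR's quasi-likelihood test with Benjamini-Hochberg adjustment, 35 genes had an adjusted p below 0.05 and are referred to as called. They are 0.246% of the genes tested, 0.148% lower and 0.0985% higher in PTRVITRO. Of the 9 prostaglandin genes 8 were tested and 1, Akr1c18, is among the called genes. The 3 values of one group lay wholly above or below the 3 of the other for 17.6% of all genes tested (9.33% with PTRVITRO lower, 8.27% with PTRVITRO higher) and for 3 of the 8, with Akr1c18 and Ptgs2 lower and Ptges3 higher in PTRVITRO. Nothing is read from these shares, since the comparison also served in choosing the genes. The median log2 fold change was -0.04 over the 8 genes and -0.0040 over all genes tested. Epithelial markers summed to 1523 to 1645 CPM (counts relative to the upper-quartile-scaled size of the library) in PVITRO and 1606 to 1687 CPM in PTRVITRO, carried by Krt8 and Krt18, with all 6 genes counted but Cdh1 at 2 counts in all libraries together. Within that sum Krt18 was at 489 ± 14.6 CPM and 549 ± 23.1 CPM, Epcam at 1.59 ± 0.306 CPM and 2.24 ± 0.149 CPM and Krt14 at 8.76 ± 0.423 CPM and 7.33 ± 0.563 CPM, each with groups apart (edgeR adjusted p = 0.139, 0.392 and 0.347). All 6 mesenchymal markers were counted and summed to 11794 to 12545 CPM in PVITRO and 10792 to 11133 CPM in PTRVITRO, so the groups did not overlap. Fibronectin, Fn1, carried most of this sum at 6645 ± 471 CPM and 5866 ± 315 CPM. Col1a1 was at 1112.5 ± 44.0 CPM and 979 ± 56.8 CPM, Col1a2 at 1289 ± 25.01 CPM and 1169 ± 38.2 CPM, and Sparc at 1125 ± 29.6 CPM and 1041 ± 29.3 CPM. These 4 had groups apart at an unadjusted p below 0.05 and were not called (edgeR adjusted p from 0.140 to 0.227), while Vim, at 1889 ± 23.7 CPM and 1890.4 ± 71.4 CPM, overlapped between the groups, and Cdh2 had 2 counts in all libraries together. The part of these marker shifts in the values below was not tested. The 6 immune markers summed to 0.579 to 0.685 CPM in PVITRO and 0.337 to 0.459 CPM in PTRVITRO, with Ptprc and Adgre1 at 0. These low sums did not overlap between the groups. Lyz2, the only one tested, was at 0.571 ± 0.0614 CPM and 0.389 ± 0.0631 CPM (edgeR adjusted p = 0.560). Endothelial markers summed to at most 0.300 CPM, with 1 of 5 at 0. Of the 6 markers of mast cells and platelets, which are rich in Ptgs1 or Hpgds, 4 were at 0, and the sum was 6.33 to 7.02 CPM in PVITRO and 5.11 to 6.49 CPM in PTRVITRO.

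Levels of different genes were compared per length, as TPM over the union of each gene's exons. Ptgs2, which encodes the inducible cyclooxygenase-2, was the most abundant of the 9 at 1402 ± 89.7 TPM (SD, n = 6), rank 90 of the 14217 genes tested, and took between 0.225% and 0.265% of all counts of a library. Next came Ptges3 at 601 ± 21.7 TPM (rank 263), Ptgs1 at 127 ± 4.52 TPM (rank 1287), Akr1c18 at 82.6 ± 12.2 TPM (rank 1936) and Ptges at 51.1 ± 3.03 TPM (rank 2987). Pla2g4a at 41.6 ± 0.969 TPM, Akr1b3 at 29.7 ± 1.18 TPM and Ptger4 at 7.32 ± 0.175 TPM followed, and Hpgd had no counts. Every neighbouring pair of the 8 kept this order in all 6 libraries, and none of the neighbours' ranges overlapped. The order in the middle rests on the gene models, however. With the length of the longest coding transcript, Akr1b3 stood at 132 TPM (rank 1293) rather than 29.7 TPM (rank 4623). Its exon union of 8384 bases is far longer than its coding transcript of 1387 bases. By that length Akr1b3 lay above Akr1c18, Ptges and Pla2g4a in all 6 libraries. It also lay above Ptgs1 in all but PTRVITRO replicate 3. Pla2g4a at 68.6 TPM passed Ptges at 40.6 TPM in all 6 libraries. Over coding transcripts Pla2g4a also stood above Akr1c18 in the 3 PTRVITRO libraries, where Akr1c18 was at 51.0 to 55.4 TPM, and in PVITRO replicate 3, and below it in PVITRO replicates 1 and 2.

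**Figure D1:**
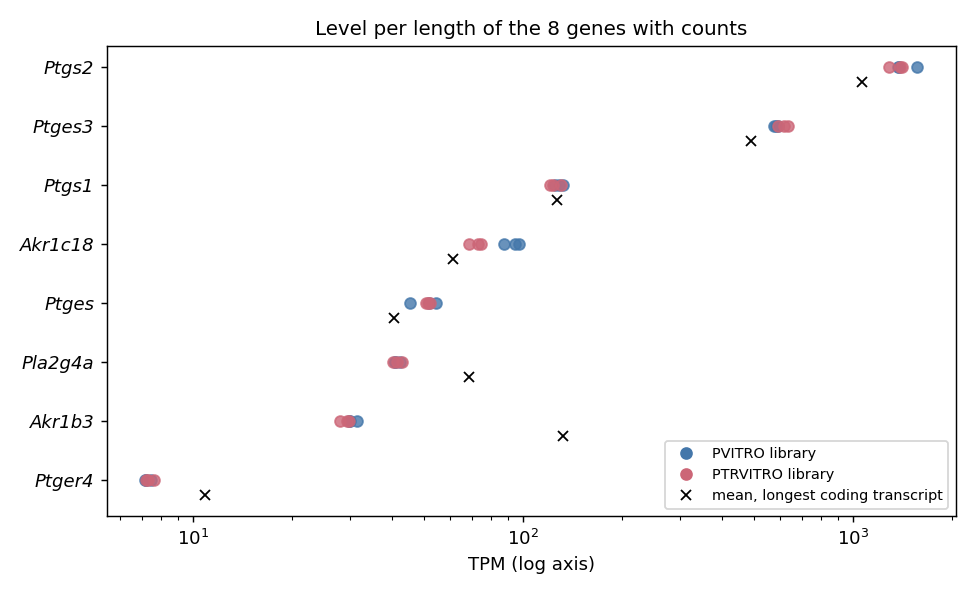
Level per length of the 8 genes with counts, on a log axis of TPM. Each dot is 1 library over the union of exons and each cross is the mean over the longest coding transcript; Ptgs2 sits highest near 1402 TPM, Ptger4 lowest near 7.32 TPM, and the cross of Akr1b3 stands well to the right of its dots.

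RNA of the main phospholipase of arachidonic acid release differed little between the groups, while that of a related gene, Pla2g7, was lower in PTRVITRO without passing the test. Pla2g4a, the cytosolic phospholipase that acts on arachidonate-rich phospholipids (chr1:149829618-149961290, minus strand, GRCm38), was at 99.5, 101 and 100.2 CPM in PVITRO and at 98.4, 101.5 and 98.2 CPM in PTRVITRO. The groups overlapped and the libraries of each group lay close together, with a coefficient of variation of 0.793% in PVITRO and 1.88% in PTRVITRO, against medians of 4.24% and 3.85% over tested genes of at least 10 CPM. The log2 fold change was -0.012 (SE 0.037). It was -0.027 without PTRVITRO replicate 2 and -0.0003 without PTRVITRO replicate 3, the ends of its range when 1 library was left out. Of 23 other genes of arachidonate release and recycling 13 were tested and 0 called, with 2 higher and 1 lower at an unadjusted p below 0.05 (11.4% of all genes tested reached that level), and their median log2 fold change was -0.0033. The lower one was Pla2g7, a secreted phospholipase that breaks down platelet-activating factor and oxidised phospholipids. It read 81.1, 79.7 and 83.7 CPM in PVITRO and 71.4, 68.3 and 67.5 CPM in PTRVITRO. Its groups lay apart, its log2 fold change was -0.24 (SE 0.041), and its adjusted p of 0.0515 in edgeR missed the threshold narrowly. Lpcat3, which puts arachidonate back into phospholipids, was at 45.7 ± 0.636 CPM and 49.6 ± 1.59 CPM (SD, n = 3 per group; edgeR adjusted p = 0.310), and Anxa1, annexin A1, an inhibitor of phospholipase A2, was at 598 ± 11.2 CPM and 629 ± 13.5 CPM (edgeR adjusted p = 0.423). Acsl4, which activates arachidonic acid for re-esterification, differed by -0.0073 on the log2 scale (edgeR adjusted p = 0.962).

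Of the cyclooxygenases the inducible form predominated. Ptgs2 (chr1:150100031-150108227, plus strand, GRCm38) and Pla2g4a both lie on chromosome 1, on opposite strands, with 138740 bases between their starts, and are transcribed away from each other. Ptgs2 was at 2409.8, 2667 and 2401 CPM in PVITRO and at 2246, 2357 and 2388 CPM in PTRVITRO. PVITRO replicate 2 stood highest, and the lowest PVITRO library and the highest PTRVITRO library differed by little, so the groups were apart only just. The means were 2493 ± 151 CPM and 2330.4 ± 74.9 CPM (SD, n = 3 per group), 6.50% lower in PTRVITRO, with a log2 fold change of -0.097 (SE 0.043), and the fold change ranged from -0.12 to -0.045 when 1 library was left out, the latter without PVITRO replicate 2. In bulk RNA, fewer cells that express a gene and less of its RNA per cell cannot be told apart. Ptgs1, the constitutive cyclooxygenase-1 (chr2:36230426-36252272, plus strand, GRCm38), read 185, 186 and 197 CPM in PVITRO and 178, 177 and 188 CPM in PTRVITRO. The third replicate was the highest of each group and the groups overlapped, at a log2 fold change of -0.067 (SE 0.040), or -0.036 without PVITRO replicate 3. Its exons share 148 bases with Gm43621 on the opposite strand, which had 54.5 to 103 estimated counts per library against 3343 to 5777 for Ptgs1. Per length, Ptgs2 exceeded Ptgs1 by 10.35 to 12.17 times over the 6 libraries, and by 7.86 to 9.24 times over coding transcripts. Over the 11 regulators of Ptgs2 mRNA in the lists, such as the RNA-binding proteins Zfp36l2 and Elavl1 and the transcription factor Cebpb, 11 were tested, 0 called and 0 reached an unadjusted p below 0.05, with a median log2 fold change of -0.045. Zfp36l2, a decay factor for AU-rich mRNA, was at 392 ± 8.72 CPM and 395 ± 2.55 CPM, and Cebpb, C/EBPβ, at 156 ± 1.41 CPM and 153 ± 6.91 CPM (edgeR adjusted p = 0.940 and 0.897).

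**Figure D2:**
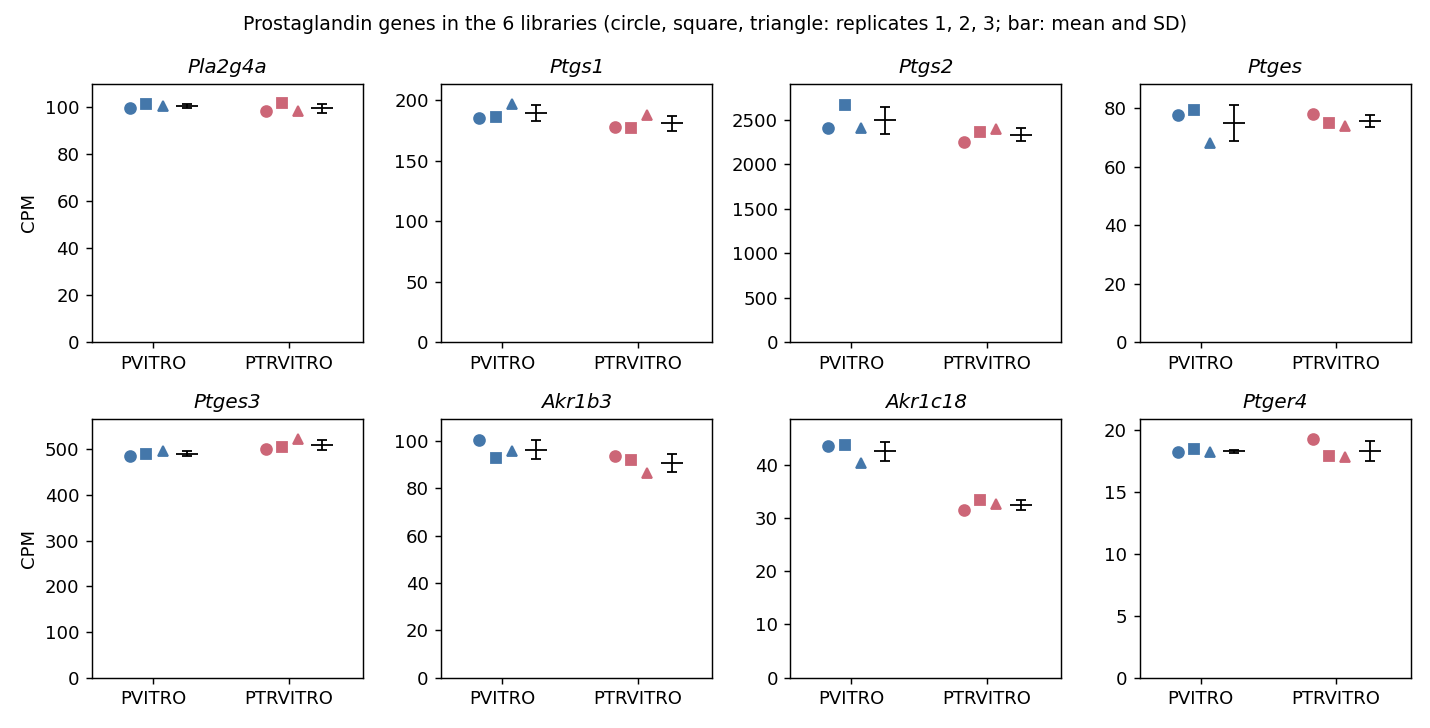
CPM of the prostaglandin genes in each library, with PVITRO in blue, PTRVITRO in red and the mean ± SD beside each group; every axis starts at 0. The Akr1c18 groups stand clearly apart, those of Ptgs2 and Ptges3 just so, and the others overlap.

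The start of Ptgs2 and that of Akr1c18 are shown since these are the most abundant gene and the gene with the greatest difference among the 9. The stretches cover 250 bases before and 25 bases after the RefSeq start, at chr1:150099781-150100055 (plus strand) and chr13:4150622-4150896 (minus strand) of GRCm38.p6, 5′ to 3′, with letters of searched motifs in capitals.
Ptgs2: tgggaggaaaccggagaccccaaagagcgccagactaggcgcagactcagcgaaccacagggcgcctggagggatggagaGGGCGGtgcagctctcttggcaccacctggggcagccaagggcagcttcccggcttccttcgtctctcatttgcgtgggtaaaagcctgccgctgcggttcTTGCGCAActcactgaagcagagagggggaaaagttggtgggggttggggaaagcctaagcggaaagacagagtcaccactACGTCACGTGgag
Akr1c18: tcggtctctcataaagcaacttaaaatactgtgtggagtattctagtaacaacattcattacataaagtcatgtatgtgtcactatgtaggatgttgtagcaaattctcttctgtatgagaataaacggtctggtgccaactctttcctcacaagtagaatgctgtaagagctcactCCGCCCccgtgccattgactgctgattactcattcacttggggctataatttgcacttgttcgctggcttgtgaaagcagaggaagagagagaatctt
The letters of 8 short motifs were looked for on both strands of the RefSeq windows of 300 bases, which end 50 bases after the start. In Ptgs2 the capitals mark an Sp1 box (GGGCGG) at -170 to -165, the C/EBP palindrome TTGCGCAA at -69 to -62, and a run at +13 to +22 in which the core of a cyclic AMP response element, or CRE (TGACGT, minus strand), shares 2 bases with an E-box (CACGTG). In Akr1c18 they mark 1 Sp1 box on the minus strand at -73 to -68. Of 32851 windows 0.183% held the C/EBP letters, 7.51% the CRE core, 7.15% the E-box and 35.7% the Sp1 box. The C/EBP letters were in 1 and the Sp1 letters in 6 of the 8 genes with a window. The search also took in the AP-1 motif (TGACTCA), held by 5.20% of windows, and the NF-kB motif, held by 0.155%. TATA letters (TATAAA) were in 13.6% and CCAAT in 37.4% of windows. None of these was in either window shown. Positions count from the annotated RefSeq start, and the start used in these cells was not measured. A match describes letters and is no evidence of binding.

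The terminal synthases of prostaglandin E2 differed little between the groups. Ptges, the inducible microsomal synthase usually coupled to cyclooxygenase-2 (chr2:30889471-30929863, minus strand, GRCm38), was at 77.8, 79.4 and 68.1 CPM in PVITRO and at 78.2, 75.0 and 74.1 CPM in PTRVITRO. PVITRO replicate 3 was the lowest of all 6, the groups overlapped, and the log2 fold change was 0.013 (SE 0.057). Ptges3, p23, known both as a cytosolic prostaglandin E synthase and as a co-chaperone of Hsp90 (chr10:128058954-128077272, plus strand, GRCm38), read 486, 491 and 496 CPM in PVITRO and 501, 505 and 523 CPM in PTRVITRO. Each PTRVITRO library was above each PVITRO library by a small margin, with means of 491 ± 5.03 CPM and 509.7 ± 11.5 CPM, 3.87% higher in PTRVITRO, and a log2 fold change of 0.055 (SE 0.031). The processed pseudogene Ptges3-ps is 100% identical to Ptges3 over 480 bases and held 5.66% to 6.50% of their joint counts, and the sum of both genes gave a log2 ratio of 0.052. Ptges2, a further synthase, was at 26.7 ± 1.93 CPM and 24.4 ± 1.42 CPM (edgeR adjusted p = 0.538). The synthases of prostaglandin D2 and thromboxane were at or near 0, with 4 counts for Hpgds, 7 for Ptgds and 7 for Tbxas1 over all 6 libraries, while Ptgis, prostacyclin synthase, was at 2.35 ± 0.264 CPM and 2.38 ± 0.429 CPM (edgeR adjusted p = 0.961). In all, 5 of 10 other genes of cyclooxygenases and terminal synthases were tested, 0 were called and 0 reached an unadjusted p below 0.05.

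Of the aldo-keto reductases that can reduce prostaglandin H2 to prostaglandin F2α, Akr1b3 and Akr1c18 were the more abundant, and Akr1b7 was at 4.98 ± 0.621 CPM and 4.78 ± 0.243 CPM (edgeR adjusted p = 0.911). Akr1b3, aldose reductase (chr6:34302434-34317478, minus strand, GRCm38), was at 100.4, 92.6 and 95.9 CPM in PVITRO and at 93.6, 91.7 and 86.5 CPM in PTRVITRO. The groups overlapped, and the log2 fold change was -0.085 (SE 0.046), or -0.049 without PVITRO replicate 1 and -0.051 without PTRVITRO replicate 3. It has 4 near-identical copies, Gm12138, Gm38056, Gm6644 and Gm6736 (99.1% to 99.7% identity over 948 to 1352 bases), which held 11.3% to 14.5% of the joint counts, so its own value is uncertain by the way reads were shared out, and the sum of all 5 gave a log2 ratio of -0.069. Its close relative Akr1b8 was at 42.7 ± 1.26 CPM and 43.1 ± 1.14 CPM (edgeR adjusted p = 0.951).

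Akr1c18 was the gene with the greatest difference. Its product, 20α-hydroxysteroid dehydrogenase, inactivates progesterone in the ovary and placenta. The gene has 9 exons in chr13:4132615-4150654 (minus strand, GRCm38). It read 43.5, 43.7 and 40.4 CPM in PVITRO and 31.5, 33.4 and 32.6 CPM in PTRVITRO. All PTRVITRO libraries lay below all PVITRO libraries, and the gap between the groups was wider than the range within either. The means were 42.5 ± 1.83 CPM and 32.5 ± 0.953 CPM (SD, n = 3 per group), 23.6% lower in PTRVITRO, at a log2 fold change of -0.39 (SE 0.051). Its coefficient of variation was 4.30% in PVITRO and 2.93% in PTRVITRO, near the medians of 4.24% and 3.85%. Its place among the called genes, from which nothing is read, was lost without PVITRO replicate 1, PTRVITRO replicate 2 or PTRVITRO replicate 3, where its log2 fold change was -0.37, -0.41 and -0.39. Of the other 7 tested prostaglandin genes, each had a log2 fold change within 0.1 of 0.

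Akr1c18 lies in a cluster of related genes, and its neighbours were looked at after their values were seen. Akr1c13 (chr13:4191150-4205596, plus strand) was at 19.99, 18.9 and 22.9 CPM in PVITRO and at 25.8, 25.8 and 22.4 CPM in PTRVITRO. PTRVITRO replicate 3 lay below PVITRO replicate 3, so the groups overlapped, and the log2 fold change of 0.27 (SE 0.083) did not pass the test (edgeR adjusted p = 0.234), though it was called with no filter on low counts. Akr1c12 (chr13:4268176-4279433, minus strand), 96.1% identical to Akr1c13 over 666 bases, was at 1.68 ± 0.450 CPM and 2.23 ± 0.183 CPM (edgeR adjusted p = 0.502), and reads of this pair may be split between them. Their sum was 22.0, 20.03 and 24.8 CPM in PVITRO and 28.2, 28.2 and 24.4 CPM in PTRVITRO, a log2 ratio of 0.27. Akr1c14 (chr13:4049011-4090688, plus strand), a 3α-hydroxysteroid dehydrogenase, was at 8.60 ± 0.840 CPM and 8.49 ± 1.04 CPM (edgeR adjusted p = 0.995). Akr1c6, Akr1c19, Akr1c20 and Akr1c21 had a count of 0 in all 6 libraries. Whether reads of one neighbour could be counted for Akr1c18 depends on the stretches they share, so the longest exact run shared with Akr1c14 and with Akr1c13 is shown.
Akr1c14: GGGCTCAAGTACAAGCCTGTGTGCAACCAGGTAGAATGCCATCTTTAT
Akr1c13: CCTGGGCTTTGGCACCTAT
The first, of 48 bases, is coding and crosses an exon junction of Akr1c18, with its ends at chr13:4137226 and chr13:4142156. The second, of 19 bases, lies in coding exon 1 at chr13:4150527-4150545 and is also the longest run shared with Akr1c12. The best alignment with Akr1c14 was 77.3% identical over 982 bases. No other gene reached 95% identity with Akr1c18 over 200 bases.

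**Figure D3:**
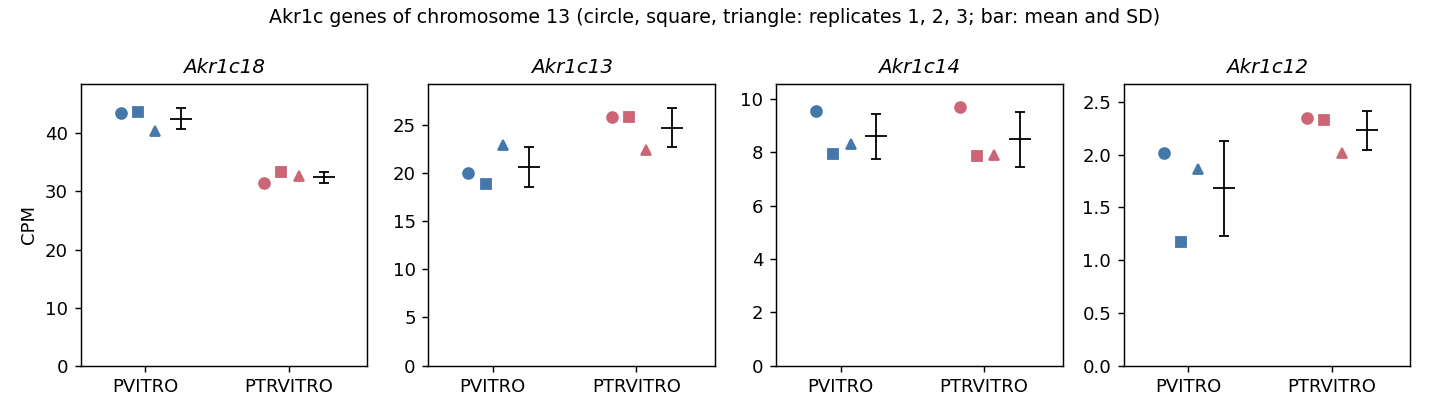
CPM of the 4 counted Akr1c genes of chromosome 13 by library, with the mean ± SD beside each group and axes from 0. Akr1c18 stands near 42.5 CPM in PVITRO and 32.5 CPM in PTRVITRO, Akr1c13 overlaps between the groups, Akr1c14 is level and Akr1c12 stays below 2.5 CPM.

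Besides the Akr1c genes, the list of progesterone metabolism held the membrane progesterone-binding proteins Pgrmc1, at 110.1 ± 2.58 CPM and 112 ± 1.52 CPM (edgeR adjusted p = 0.842), and Pgrmc2, at 68.9 ± 5.21 CPM and 66.9 ± 1.78 CPM (edgeR adjusted p = 0.829). Pgr, the nuclear progesterone receptor, had a count of 0 in every library. Of the 16 genes of this list other than Akr1c18, 9 were tested and 0 called, 1 was higher at an unadjusted p below 0.05 (Akr1c13), and the median log2 fold change was 0.015.

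RNA of the uptake transporter Slco2a1 was counted and RNA of Hpgd was not detected, while uptake and oxidation themselves were not measured. Hpgd, 15-hydroxyprostaglandin dehydrogenase, the main enzyme that inactivates prostaglandin E2 (chr8:56294585-56321043, plus strand, GRCm38), had a count of 0 in all 6 libraries. A count of 0 allows up to 3 counts, which is 0.0925 CPM in the deepest library and 0.169 CPM in the shallowest, counting error only. Slco2a1, the transporter that brings prostaglandins into the cell, was at 232, 259 and 235 CPM in PVITRO and at 236, 251 and 260.5 CPM in PTRVITRO. Its groups overlapped (log2 fold change 0.040, SE 0.051, edgeR adjusted p = 0.818). Zadh2, a prostaglandin reductase, was at 51.3 ± 1.93 CPM and 54.1 ± 0.779 CPM (edgeR adjusted p = 0.542). Abcc4, an exporter of prostaglandin E2 and cyclic AMP, was at 1.46, 1.47 and 1.32 CPM in PVITRO and at 2.13, 1.73 and 2.02 CPM in PTRVITRO. Its groups lay apart, but its log2 fold change of 0.46 (SE 0.19) did not pass the test (edgeR adjusted p = 0.387). Cyp4f16, a cytochrome P450 of the fatty acid hydroxylase family, had means of 37.6 ± 0.987 CPM and 41.3 ± 1.72 CPM, and its groups lay apart as well (log2 fold change 0.13, SE 0.049, edgeR adjusted p = 0.320). Of 11 genes of transport and breakdown, Hpgd aside, 8 were tested and 0 called, with a median log2 fold change of 0.044.

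Receptors were few. Ptger4, the EP4 receptor that raises cyclic AMP (chr15:5206661-5244187, minus strand, GRCm38), was at 18.2, 18.4 and 18.2 CPM in PVITRO and at 19.2, 17.9 and 17.8 CPM in PTRVITRO. The PVITRO libraries agree within 0.732% (coefficient of variation), inside the wider range of PTRVITRO, and the log2 fold change was 0.0074 (SE 0.061). Its exons share 82 bases with Ttc33 and 1015 bases with the processed pseudogene Gm15937, both on the opposite strand. Gm15937, 100% identical to Ptger4 over 874 bases, had a count of 0 in every library, and the setting used for strand in counting is not stated. Ptger1, the EP1 receptor, was at 1.19 ± 0.282 CPM and 0.855 ± 0.194 CPM (edgeR adjusted p = 0.601). Ptger2, the other receptor of prostaglandin E2 that raises cyclic AMP, had 33.7 estimated counts over all 6 libraries, and Ptger3 and Ptgfr, the receptor of prostaglandin F2α, had 0. Among partners, the receptor-associated Ptgfrn was at 169.8 ± 6.05 CPM and 172 ± 6.80 CPM (edgeR adjusted p = 0.882) and the nuclear receptor Ppard at 52.9 ± 1.12 CPM and 53.5 ± 0.648 CPM (edgeR adjusted p = 0.924). Of 11 receptors and partners other than Ptger4, 4 were tested and 0 called. The parallel lipoxygenase branch was sparse, with Alox5 at 0 and Alox15 at 1 count, and of its 11 genes 5 were tested and 0 called. Its most abundant genes, Lta4h, which makes leukotriene B4, and Ephx2, a soluble epoxide hydrolase, had log2 fold changes of 0.0017 and 0.015 (edgeR adjusted p = 0.993 and 0.970). The other tested genes were low, with Ltc4s at -0.44, Alox5ap at -0.42 and Aloxe3 at -0.22 on the log2 scale and overlapping groups (edgeR adjusted p = 0.506, 0.541 and 0.829), and the median of the list was -0.22.

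Genes that respond to cyclic AMP, the messenger below EP4, were counted as a list of 16, all tested. Of these, 5 had a positive and 11 a negative log2 fold change, and cyclic AMP itself was not measured. None was called by edgeR, 4 were lower and 1 higher at an unadjusted p below 0.05 (11.4% of all genes tested reached it), and their median log2 fold change was -0.091 against -0.0040 over all genes. Nr4a1, an immediate early nuclear receptor, read 36.9, 22.6 and 30.0 CPM in PVITRO and 19.2, 17.999 and 15.6 CPM in PTRVITRO. The PVITRO libraries were widely spread and PVITRO replicate 2 came near the PTRVITRO libraries without crossing them (log2 fold change -0.74, SE 0.15, edgeR adjusted p = 0.0888). Rgs2, a regulator of G protein signaling, read 43.5, 40.6 and 43.7 CPM in PVITRO and 35.4, 33.2 and 28.1 CPM in PTRVITRO. The groups lay apart, with PTRVITRO replicate 3 lowest (log2 fold change -0.39, SE 0.074, edgeR adjusted p = 0.0710). Fosb, a subunit of AP-1, was at 23.6 ± 1.63 CPM and 18.3 ± 2.24 CPM, again with groups apart (log2 fold change -0.35, SE 0.088, edgeR adjusted p = 0.170). With no filter on low counts 4 genes of the list, Nr4a1, Rgs2, Fosb and Fos, were called. The most abundant of the list were Areg, the EGF receptor ligand amphiregulin, at 957 ± 22.8 CPM and 959.7 ± 21.5 CPM (edgeR adjusted p = 0.975), and Amd1, an enzyme of polyamine synthesis, at 430.2 ± 24.0 CPM and 465 ± 20.7 CPM (edgeR adjusted p = 0.398).

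**Figure D4:**
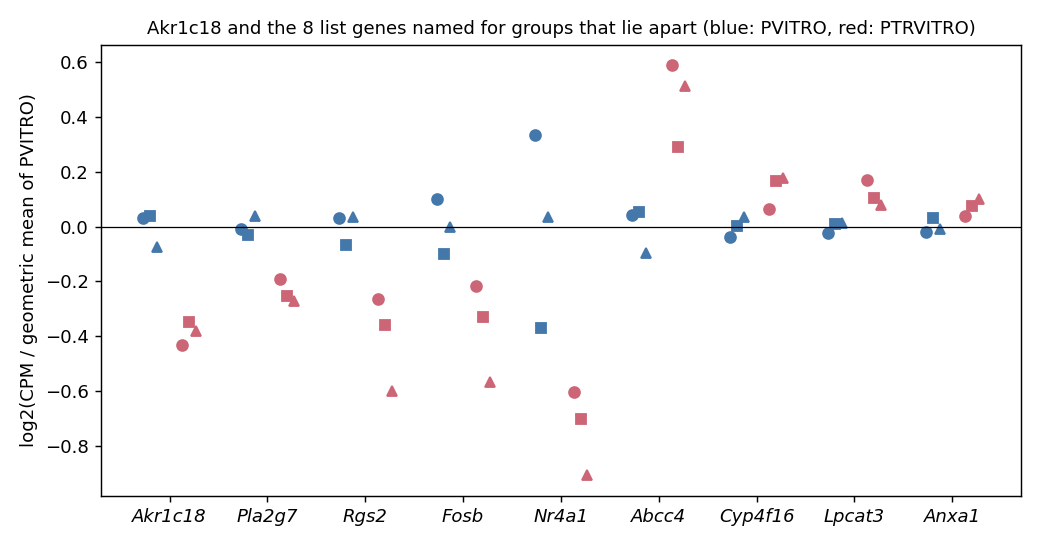
log2 of CPM relative to the geometric mean of PVITRO for Akr1c18 and the 8 list genes whose groups lie apart at an unadjusted p below 0.05, with 1 symbol per library. Akr1c18 has tight groups, while Nr4a1 spreads widely in PVITRO; none of the 8 list genes passed the adjusted test.

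Over all 8 pathway lists, with each gene once and the 9 genes left out, 109 genes were in the table, 71 were tested and 16 had a count of 0 everywhere. edgeR called 0 of the 71, with 6 higher and 5 lower at an unadjusted p below 0.05 (11.4% over all genes), while DESeq2 called 2 (Pla2g7 and Rgs2, both lower) and limma-voom 0. The groups lay apart for 6 upward and 6 downward of the 71, against 17.6% of all genes tested, and the median log2 fold change was -0.012. The lists were written with earlier results of these data known.

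**Figure D5:**
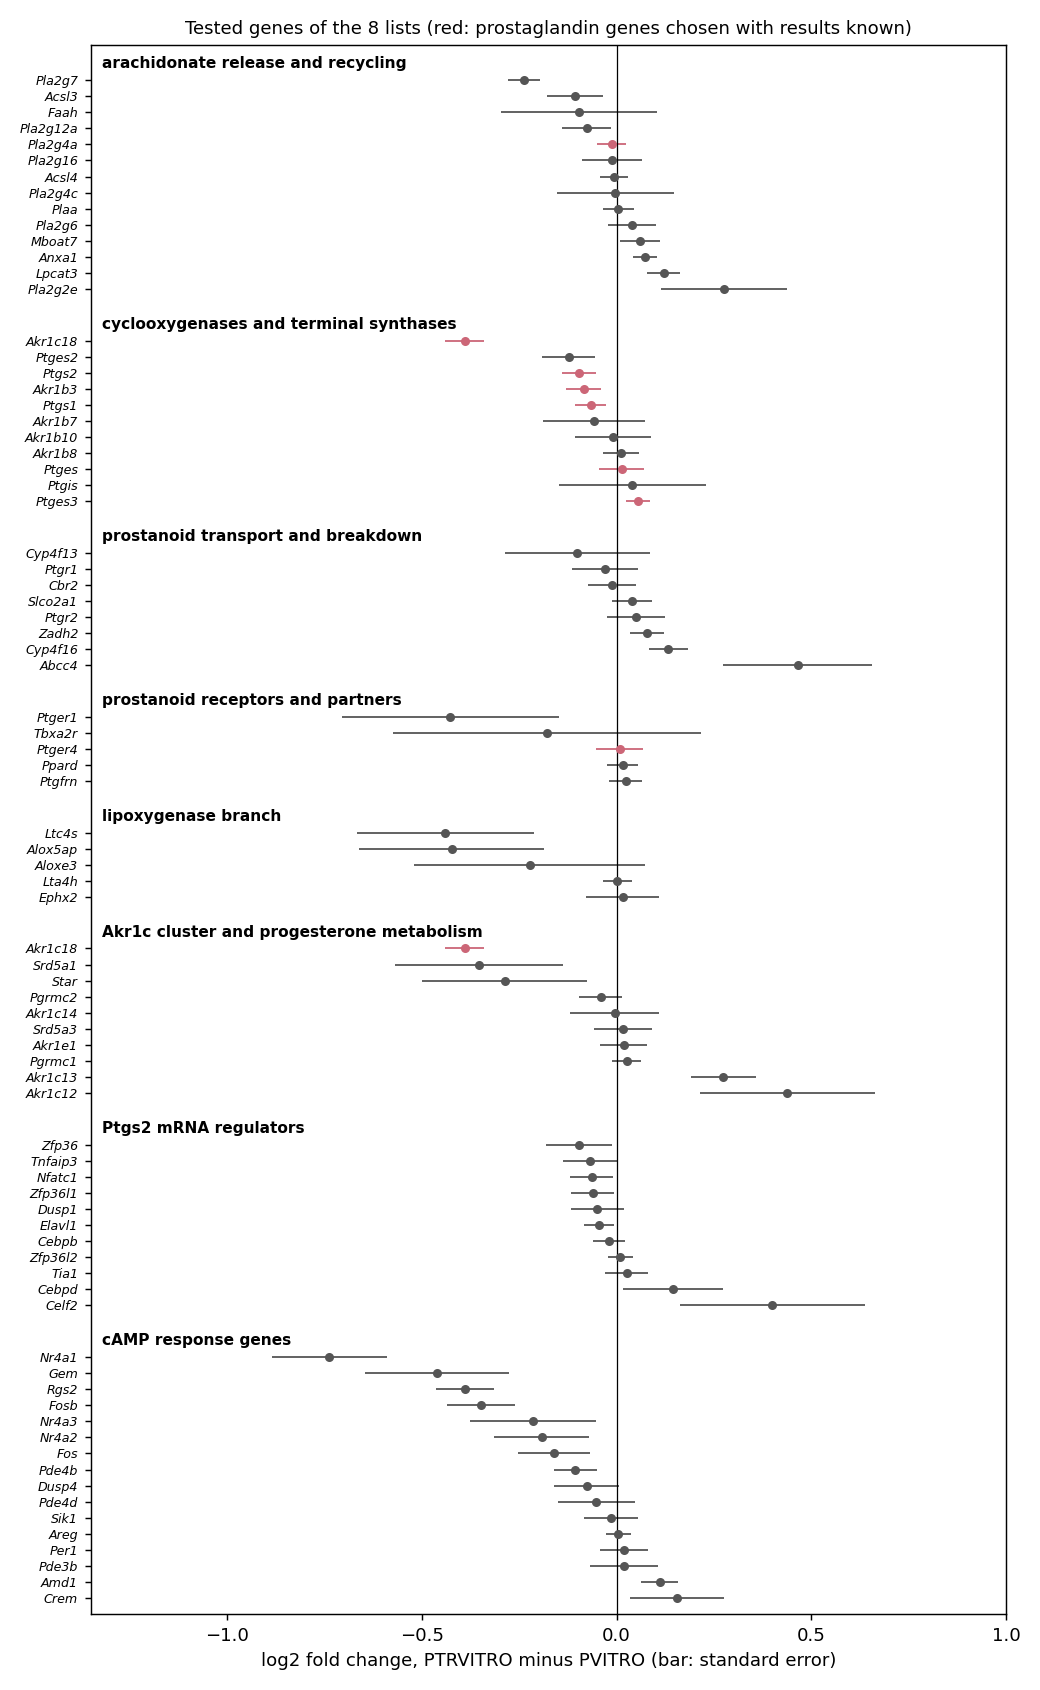
log2 fold change with its standard error for every tested gene of the 8 lists, by list, with the prostaglandin genes in red. Most genes lie close to 0, Akr1c18 stands at -0.39 among the synthases, and Nr4a1 at -0.74 heads the cyclic AMP list.

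The profiles most like that of Akr1c18 over the 6 libraries, by Pearson's r of log2(CPM + 0.5) over 10424 genes of at least 5 CPM, were those of Hdlbp (r = 0.999), Bop1 (0.998), Tmem43 (0.992), Rcc2 (0.992) and Scara5 (0.991). Their log2 fold changes, from -0.16 (Scara5) to -0.070 (Hdlbp), were smaller than that of Akr1c18. For Ptgs2 they were Klhl26 (0.995), Agap1 (0.995), Prrc2a (0.992), Col5a1 (0.991) and Lama5 (0.990). With 6 libraries in 2 groups such values are common. In all, 243 genes exceeded 0.9 for Akr1c18 and 203 for Ptgs2, and the values are given as a description only.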

How the data were processed

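RNA of 6 libraries was analysed. The authors aligned reads with STAR 2.6.0a to GRCm38 after FastQC 0.11.5 and quantified genes with RSEM 1.3.1, per the labels and the submitters' processing notes. The deposited values are expected counts, not scaled between libraries, and part of them are not whole numbers. The RSEM strand setting is not given in the sources used here. The symbols of 53274 of the 53465 genes came from GENCODE M21, while the authors used M16.

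Counts were rounded, genes filtered with filterByExpr (minimum count 10, minimum total 15), scaled by the upper quartile and tested between groups by quasi-likelihood in edgeR (version 4.0.16, R 4.3.3), with p-values adjusted by Benjamini-Hochberg over 14217 genes and called below 0.05. The script was tested on simulated data. The members and the gene lists were chosen with earlier results of these data known, so members carry no p. Genes other than members are named where called, where groups of a listed gene lie apart at an unadjusted p below 0.05, as the 2 most abundant of a list, as copies or overlapping genes, or as the 5 most alike in profile. All further genes, such as the Akr1c neighbours, Ptgis, Ptger1 and those with counts near 0, were picked with their values in view. TPM used exon unions of the annotation. Copies were found with BLAST+ 2.17.0 (at least 95% identity over 200 bases). Sequences are RefSeq, GRCm38.p6 (8 of 9 members matched, not Akr1b3) and GENCODE transcripts. Alternatives were TMM, no scaling factor, DESeq2 1.42.0, limma-voom 3.58.1, other filters, the replicate block, other lengths and leaving out each library. The floor was set at 3 counts, and floors cover counting error only.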

Additional observations from a re-analysis of the deposited data

How the results depend on the processing

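The fold changes of the 8 tested prostaglandin genes moved by less than the SD between libraries in all 59 comparisons with other settings and all 48 with 1 library left out, but those of Ptges (-0.051 to 0.058) and Ptger4 (-0.031 to 0.030) changed sign with the library left out and have no direction. Counts of called genes depended on the setting. Against 35 genes called, DESeq2 called 111, no filter on low counts 400, at least 10 counts in every library 54, the replicate block 68, and leaving out 1 library 8 (PTRVITRO replicate 3) to 64 (PVITRO replicate 2), with 11 without PVITRO replicate 1, 9 without PVITRO replicate 3 and 12 without PTRVITRO replicate 2; the cause was not tested. Members called were 0 to 1 with 1 library left out. Against 0 genes of the pathway lists, TMM called 1, DESeq2 2, no filter 6, at least 10 counts 1, the block 1 and leaving out 1 library 0 to 2 (2 without PVITRO replicate 2 or without PTRVITRO replicate 1). Pla2g7 was called with TMM, DESeq2, both other filters and without PVITRO replicate 2 or PTRVITRO replicate 1, Rgs2 with DESeq2, no filter and without PTRVITRO replicate 1, and Nr4a1 with no filter, with the block and without PVITRO replicate 2. No filter also called Akr1c13 (log2 fold change 0.27), Fosb (-0.35) and Fos (-0.16). The labels do not say whether the replicate numbers pair the libraries. Same-numbered deviations correlated at 0.183, 0.0931 and -0.043, and differently numbered ones at -0.233 to 0.144. With 3 libraries per group these values cannot decide it. Levels per length followed the length used. With the longest transcript, TPM was 136.2 for Ptgs1, 1143 for Ptgs2, 43.65 for Ptges, 527.8 for Ptges3, 65.89 for Akr1c18, 39.23 for Akr1b3, 60.98 for Pla2g4a and 10.24 for Ptger4. With the longest coding transcript, an alternative chosen after seeing the data, it was 1064 for Ptgs2, 40.62 for Ptges, 491.3 for Ptges3, 61.33 for Akr1c18, 132.3 for Akr1b3, 68.63 for Pla2g4a and 10.85 for Ptger4.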
